A study of Mus musculus with 12 samples.

Results

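Genes of cholesterol and fatty acid synthesis were followed in SVR tumors, xenografts of a mouse angiosarcoma line of endothelial origin. The genes were 29 by name: 7 of the mevalonate steps, 11 of the sterol steps, 5 of the regulators and 6 of fatty acid synthesis, among 54232 genes in the count table. Of these, 25 had enough counts to be tested, among 12897 genes tested in all. The RNA came from 12 tumors, 3 in each of 4 groups. Control mice received vehicle by daily gavage. The other mice received trametinib at 1 mg/kg, a MEK inhibitor, cediranib at 3 mg/kg, an inhibitor of VEGF receptors, or both together (the combination). All hosts were adult athymic nude mice, which lack T cells, and the labels give the strain as C57BL/6. The model rests on 1 cell line under the skin of the flank, and the labels give ulceration or a size limit as the end of treatment. The study also ran an experiment with a fixed end, and which of them gave the sequenced tumors is not stated, so time on treatment may have differed between mice. The sources do not state whether the 3 tumors of a group came from separate experiments, and p-values measure only the spread between these tumors. Whole tumors were sequenced, so skin, fat, vessels and muscle of the mouse cannot be separated from tumor cells by species.

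Cholesterol is built from acetyl-CoA through mevalonate, isoprenoid units, squalene and lanosterol. When sterols in the endoplasmic reticulum run low, the escort protein SCAP carries the SREBP transcription factors to the Golgi, where they are cut and released to the nucleus. SREBP2, the product of Srebf2, acts mainly on cholesterol genes, and SREBP1, the product of Srebf1, acts mainly on fatty acid genes. INSIG1 holds SCAP back when sterols are plentiful, and Insig1 is itself an SREBP target. Hmgcs1 encodes the synthase that makes HMG-CoA at the entry to the mevalonate steps.

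Promoter sequence is shown for Hmgcs1 and Insig1, textbook targets of SREBP, and for Srebf1 and Elovl6, the members that passed the test of a difference between groups. The sequences were taken from RefSeq on GRCm38.p6 and cover up to 250 bases before the transcription start, ended where the gene begins in the deposited table. Capitals mark matches on either strand to a sterol regulatory element (TCACNCCAC), a CCAAT box (CCAAT), an E-box (CACGTG) or a GC box (GGGCGG).
Hmgcs1, chr13:119690101-119690350, plus strand: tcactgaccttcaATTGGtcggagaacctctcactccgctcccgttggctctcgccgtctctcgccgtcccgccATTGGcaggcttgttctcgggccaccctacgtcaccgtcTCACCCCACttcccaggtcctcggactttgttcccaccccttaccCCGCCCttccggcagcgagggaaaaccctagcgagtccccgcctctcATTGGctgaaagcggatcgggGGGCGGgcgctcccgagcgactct
Insig1, chr5:28071162-28071362, plus strand: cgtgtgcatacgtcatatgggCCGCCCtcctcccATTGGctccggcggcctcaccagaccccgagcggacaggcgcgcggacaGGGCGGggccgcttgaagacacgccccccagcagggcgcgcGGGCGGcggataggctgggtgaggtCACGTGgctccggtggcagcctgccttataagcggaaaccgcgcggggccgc
Srebf1, chr11:60222582-60222831, minus strand: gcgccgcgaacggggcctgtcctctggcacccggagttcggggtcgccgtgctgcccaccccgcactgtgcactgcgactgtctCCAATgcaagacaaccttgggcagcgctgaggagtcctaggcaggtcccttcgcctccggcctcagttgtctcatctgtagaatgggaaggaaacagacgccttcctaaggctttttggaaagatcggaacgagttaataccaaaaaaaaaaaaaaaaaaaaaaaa
Elovl6, chr3:129532136-129532354, plus strand: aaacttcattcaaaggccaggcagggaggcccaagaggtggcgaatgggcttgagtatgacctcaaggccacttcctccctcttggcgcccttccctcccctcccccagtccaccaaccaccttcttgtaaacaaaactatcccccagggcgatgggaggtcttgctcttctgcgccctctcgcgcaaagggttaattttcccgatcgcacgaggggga

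The Hmgcs1 sequence held a sterol regulatory element 137 bases before its start, with CCAAT boxes at 237, 176 and 45 bases before the start. No other member had that element in the same window, and 1.05% of 32841 RefSeq promoters had it. Of the 29 members, 23 had an entry, with 29 promoters in all. A CCAAT box stood in 19 of these 29 promoters, against 33.9% of all promoters. A GC box stood in 21 of 29, against 32.7%, and an E-box in 5 of 29, against 6.02%. The Insig1 sequence held the E-box 101 bases before its start, and the Elovl6 sequence held none of the 4 motifs. Srebf1 had RefSeq promoters besides that printed, and matches there included GC boxes and a CCAAT box. These are matches of letters in a window, not sites shown to be bound.

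Libraries held 9478865 to 11666094 counts, and a count of 3, the most that a count of 0 allows, was worth 0.251 to 0.349 CPM. MEK inhibition was visible in ERK output genes, of which 12 of 12 had a lower estimate with trametinib than in control. Of these, 10 passed downward in the test described below, against 3.47% of all genes. Endothelial markers, which cannot be assigned to tumor cells or host vessels here, summed to 257 to 528 CPM in control and 117 to 178 in trametinib tumors. They summed to 158 to 409 CPM in cediranib and 80.5 to 144 in combination tumors. In a bulk tumor, fewer cells of a type and less RNA per cell cannot be told apart. Cediranib tumor 2 stood apart from its group in skin markers as well as in the genes described here. The 17 epidermal markers summed to 79.3 CPM in cediranib tumor 2, against 2941 and 1836 CPM in cediranib tumors 1 and 3. Control tumors lay at 48.3 to 652 CPM, so cediranib tumor 2 was within the control range and cediranib tumors 1 and 3 were above it. Values for comparisons with cediranib are therefore also given without cediranib tumor 2 for the members as a set and for Hmgcs1, Msmo1, Srebf2, Elovl6 and Scd1. Other members moved as well.

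The members spanned a wide range of levels. Per kilobase of the gene length in the count table, Acly, which makes cytosolic acetyl-CoA from citrate, stood highest in control tumors at 54.3 CPM per kilobase. Srebf2 followed at 25.6 CPM per kilobase and Scd2, a stearoyl-CoA desaturase, at 21.6. Fasn, Hmgcs1 and Srebf1 lay close together at 11.6, 10.7 and 10.4 CPM per kilobase. Sqle, the squalene epoxidase, lay at 0.441 CPM per kilobase. Idi1, Hsd17b7, Ebp and Sc5d did not pass the filter on low counts. Idi1, the isopentenyl diphosphate isomerase, had 0 to 2 counts in any library, and the other 3 of these genes had at most 12. These 4 genes have no comparison here.

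Few members passed the test in any comparison. The test was the quasi-likelihood F test of edgeR on counts, with p-values adjusted over all 12897 genes by Benjamini-Hochberg (FDR), and a gene passed at an FDR of 0.05. In trametinib against control 1 of 25 members passed, Elovl6, which fell, where 6.12% of all genes tested passed and 3.47% passed downward. In combination against cediranib 0 of 25 passed, against 7.68% of all genes. This comparison shares no tumor with the first and gives the effect of trametinib where both groups had cediranib. In cediranib against control 0 of 25 passed, and 0% of all genes did. In combination against trametinib 0 of 25 passed, against 0.969% of all genes. In combination against control 1 of 25 passed, Srebf1, which rose, where 9.98% of all genes passed and 4.85% passed upward. The interaction, which asks whether trametinib acted differently with and without cediranib, had 0 of 25 and 0% of all genes. The member share of 4% in both comparisons with a call was near the share of all genes that passed in the same direction.

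The stricter threshold of the study, an FDR of 0.05 together with a log2 change of 1.5 or more in size, was passed by 0 of 25 members in each of the 6 comparisons. Of all genes tested, 2.4% passed it in trametinib against control, 2.45% in combination against cediranib, 0% in cediranib against control, 0.675% in combination against trametinib, 3.61% in combination against control and 0% in the interaction. At an unadjusted p under 0.05 the members numbered 5 in trametinib against control, 1 in combination against cediranib, 4 in cediranib against control, 3 in combination against trametinib, 5 in combination against control and 3 in the interaction. The corresponding shares of all genes were 20.7%, 23.1%, 4.32%, 17.9%, 27.2% and 7.05%. DESeq2 counted 2, 0, 1, 1, 2 and 0 members past its adjusted p of 0.05 in the same order, against 10.1%, 11.8%, 0.093%, 5.56%, 14.6% and 0.287% of all genes.

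Directions were counted next, whether or not a gene passed. In cediranib against control all 25 members had a positive log2 fold change, with a median of 0.44, where 49.6% of all genes were positive with a median of −0.0027. In combination against control 22 of 25 were positive, with a median of 0.36. In trametinib against control 18 of 25 were positive, with a median of 0.17. Where both groups had cediranib, 7 of 25 were positive with trametinib added, with a median of −0.12. These comparisons are not independent, since the first 3 share the control tumors and members varied together within some tumors, so the counts are descriptions. With a score of epidermal markers in the fit, the median was −0.16 in combination against control and 0.14 in cediranib against control. With a score of adipocyte markers it was 0.59 in trametinib against control. Both scores follow the treatment groups in part.

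**Figure D1:**
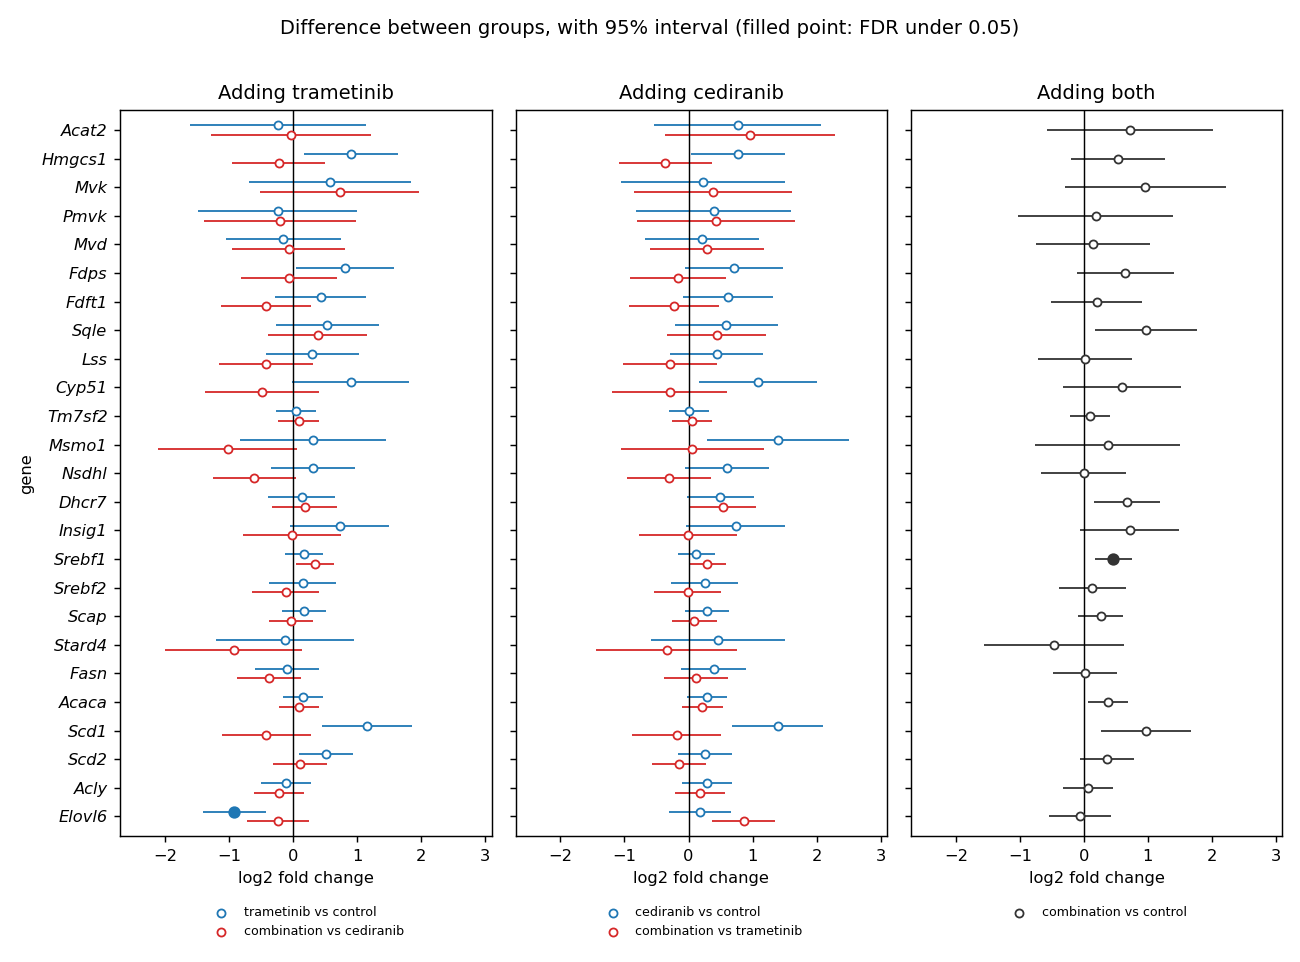
Log2 fold change of each tested gene with its 95% interval, for adding trametinib (left: without cediranib in blue, with it in red), adding cediranib (middle: without trametinib in blue, with it in red) and both drugs against control (right). Filled points passed an FDR of 0.05: Elovl6 in trametinib against control at −0.92 and Srebf1 in combination against control at 0.46.

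Tumors of the same group differed widely in these genes. Among the 14 tested mevalonate and sterol genes, the median log2 difference from the control mean was 0.79 in cediranib tumor 1, −0.33 in cediranib tumor 2 and 0.84 in cediranib tumor 3. It was 0.53, 0.64 and 0.06 in trametinib tumors 1, 2 and 3, and 0.57, 0.48 and 0.24 in combination tumors 1, 2 and 3. The control tumors lay at −0.03, −0.10 and 0.09. Thus 2 cediranib and 2 trametinib tumors stood above all controls, while the remaining tumor of each of these groups stood below the highest control. All 3 combination tumors stood above all controls.

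Cediranib tumor 2 had the lowest level of its group for 14 of 14 mevalonate and sterol genes and for 22 of 25 members, where 35.7% of all genes tested were lowest there. The exceptions were Scap, Stard4, a sterol transport protein gene, and Scd1, which was highest in that tumor. Trametinib tumor 3 was lowest of its group for 9 of 14 mevalonate and sterol genes and 15 of 25 members, against 35% of all genes. In the combination group, tumor 3 was lowest for 9 of the 14 genes, against 37.5% of all genes, and tumor 1 was highest for 9 of them, against 31.7%.

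**Figure D2:**
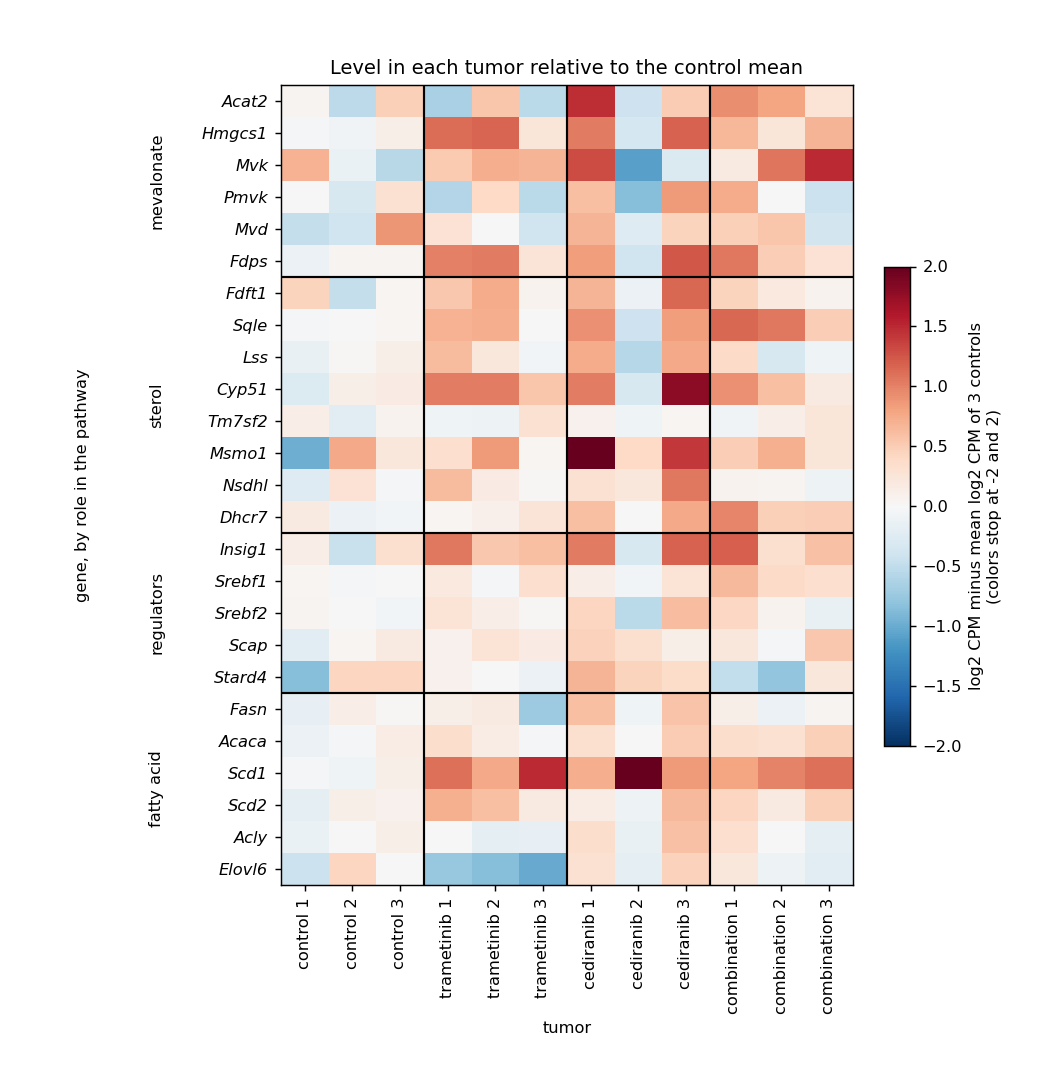
Each cell gives 1 gene in 1 tumor as log2 CPM minus the mean log2 CPM of the 3 controls (red higher, blue lower), with genes ordered by their step in the pathway and tumors by group. Cediranib tumor 2 is blue or pale for most cholesterol genes while cediranib tumors 1 and 3 are mostly red, with exceptions such as Scap, Stard4, Msmo1 and Scd1, which lie above control in cediranib tumor 2, and Mvk, which lies below control in cediranib tumor 3.

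The spread between cediranib tumors was larger for these genes than for genes in general. The median SD of log2 CPM between cediranib tumors was 0.62 for the 25 members and 0.80 for the 14 mevalonate and sterol genes, against 0.26 for all genes tested. In control tumors the members' median SD was 0.19, against 0.25 for all genes. In trametinib and combination tumors it was 0.28 for the members, against 0.24 and 0.26.

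**Figure D3:**
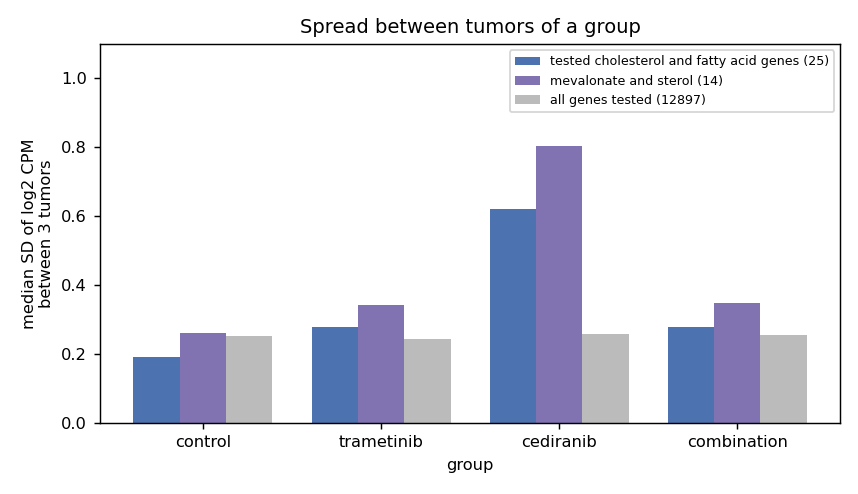
Median over genes of the SD of log2 CPM between the 3 tumors of a group, for the tested members, the mevalonate and sterol genes among them, and all genes tested. The bars of the cediranib group reach 0.62 and 0.80 for the pathway, against 0.26 for all genes.

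Marker genes of skin and fat moved with this tumor order in part. The 12 adipocyte markers summed to 42.7 CPM in cediranib tumor 2, against 5.60 and 1.82 CPM in cediranib tumors 1 and 3. They summed to 8.72, 31.1 and 41.9 CPM in trametinib tumors 1, 2 and 3, to 7.88, 3.99 and 13.2 CPM in the combination tumors, and to 4.34 to 6.69 CPM in the controls. Adipoq, the defining adipocyte hormone gene, was at 0 in 10 of 12 tumors, and Car3 alone reached 28.4 CPM in cediranib tumor 2. Epidermal markers summed to 3009.5 to 4584 CPM in combination, 18.97 to 37.8 CPM in trametinib and 48.3 to 652 CPM in control tumors. The 10 sebaceous gland markers summed to 58.8 to 134 CPM in combination, 17.8 to 135 in cediranib, 23.1 to 28.7 in trametinib and 27.6 to 40.4 in control tumors. Mc5r, a defining sebocyte receptor gene, was at 0 in 12 of 12 tumors. Of 9 tested skeletal muscle markers, 0 had a positive log2 fold change in cediranib against control, with a median of −5.37, and 0 passed the FDR. The muscle markers summed to 16921 CPM in control tumor 2, against 339.98 and 10.51 CPM in control tumors 1 and 3 and 12.3 to 134 CPM in cediranib tumors, so 1 control tumor held most of the control signal. The 8 fibroblast markers summed to 3273, 6738 and 1601 CPM in cediranib tumors 1, 2 and 3, and to 2048 to 21076 CPM in control tumors. The 10 macrophage markers summed to 335, 413 and 275 CPM in the same cediranib tumors, and to 377 to 649 CPM in control tumors. The part of skin, fat, muscle, fibroblasts or macrophages in the pathway's levels was not tested.

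**Figure D4:**
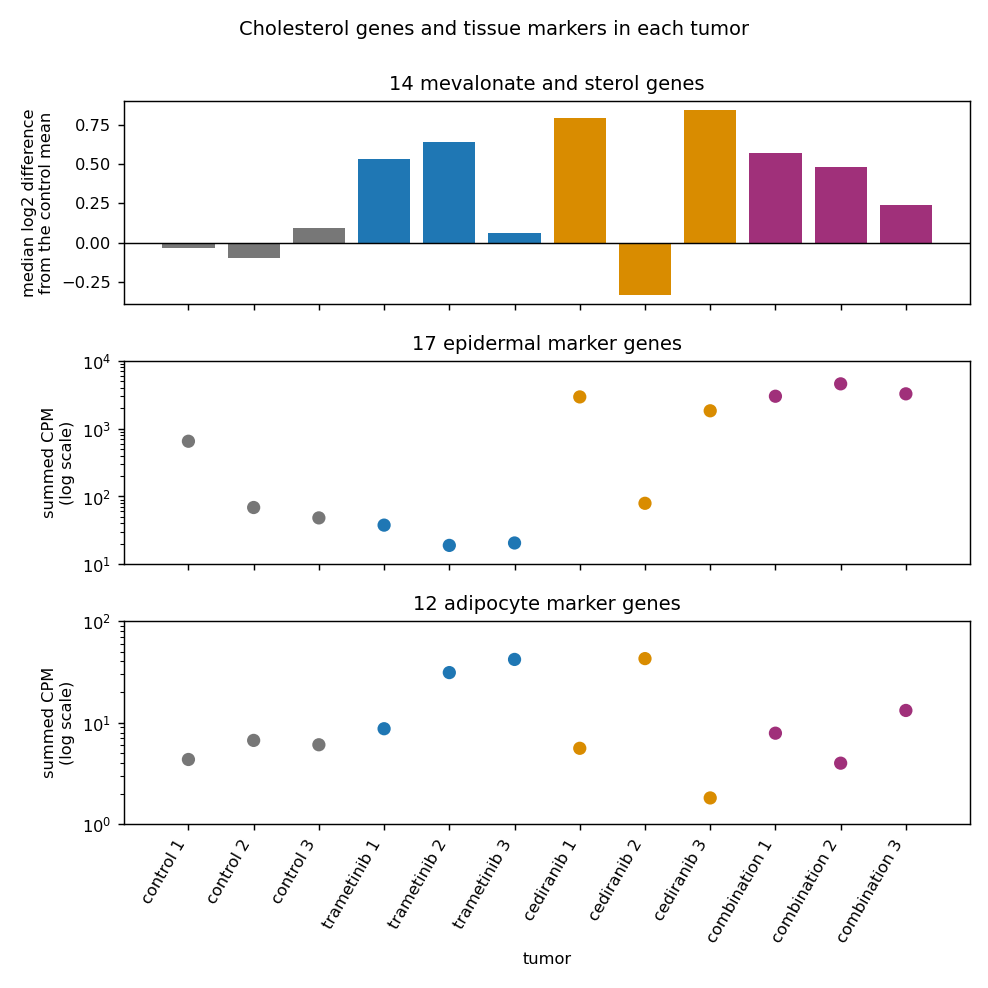
Top: median log2 difference from the control mean of 14 mevalonate and sterol genes in each tumor, from −0.33 in cediranib tumor 2 to 0.84 in cediranib tumor 3. Middle and bottom: summed CPM of 17 epidermal and 12 adipocyte marker genes in the same tumors, on log scales, where cediranib tumor 2 stands low in the first and high in the second.

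Without cediranib tumor 2 the comparisons with cediranib moved. In cediranib against control the members' median log2 fold change was 0.69 in place of 0.44, again with 25 of 25 positive. The members at an unadjusted p under 0.05 then numbered 15 of 25, against 7.78% of all genes, yet 0 passed the FDR and the smallest was 0.202. In combination against cediranib the median became −0.40 with 5 of 25 positive, and 0 passed. In the interaction it became −0.49 with 2 of 25 positive, and 0 passed. These values rest on 2 cediranib tumors, and the tumor left out was singled out after its values were seen. The 2 tumors kept were those with epidermal sums above the controls.

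In the mevalonate steps, Hmgcs1 had the highest control level per kilobase. Its level stood at 47.9, 46.4 and 52.9 CPM in control tumors, at 107, 109.6 and 58.3 CPM with trametinib, at 101, 38.4 and 112 CPM with cediranib and at 77.5, 57.9 and 78.4 CPM with the combination. All trametinib tumors and all combination tumors lay above all controls, while cediranib tumor 2 lay below them. The log2 fold change was 0.90 (SE 0.34, 95% interval 0.17 to 1.64, FDR 0.152) for trametinib against control and 0.77 (interval 0.03 to 1.5, FDR 0.999) for cediranib against control. With both groups on cediranib, adding trametinib gave −0.23 (interval −0.96 to 0.50, FDR 0.727). Without cediranib tumor 2, cediranib against control was 1.11 (FDR 0.203) and adding trametinib to cediranib was −0.58 (FDR 0.21).

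Fdps, which encodes farnesyl diphosphate synthase, had group means of 41.7 ± 2.89 CPM (SD, n = 3) in control, 73.2 ± 20.5 in trametinib, 68.3 ± 34 in cediranib and 65.4 ± 18.6 in combination tumors. As with Hmgcs1, its 3 trametinib tumors and its 3 combination tumors lay above all controls, and its FDR was 0.21 for trametinib against control. The other tested genes of these steps, Acat2, Mvk, Pmvk and Mvd, had 139 to 796 counts over all tumors, and their intervals for trametinib against control all held 0. Acat2 encodes a thiolase, Mvk and Pmvk encode the 2 kinases and Mvd the decarboxylase of the mevalonate steps. The role group as a whole, 6 genes, had a median log2 fold change of 0.21 in trametinib against control, 0.55 in cediranib against control and 0.59 in combination against control.

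Among the sterol genes, Sqle lay at 2.38, 2.43 and 2.53 CPM in control tumors. It lay at 4.09, 4.19 and 2.43 CPM with trametinib, at 4.8, 1.8 and 4.5 CPM with cediranib and at 5.66, 5.27 and 3.53 CPM with the combination. The combination tumors lay above all controls, and cediranib tumor 2 and trametinib tumor 3 lay at or below the highest control. The log2 fold change for combination against control was 0.97 (SE 0.36, interval 0.18 to 1.77, FDR 0.111), and Sqle rested on 19 to 58 counts a tumor. The remaining differences of Sqle had FDRs of 0.464 or more.

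Cyp51, the lanosterol demethylase, had 5.26 ± 0.876 CPM (SD, n = 3) in control, 9.80 ± 1.75 in trametinib, 11.2 ± 7.21 in cediranib and 7.98 ± 2.03 in combination tumors. Its log2 fold change was 0.90 (interval −0.02 to 1.81, FDR 0.254) with trametinib. Msmo1, a sterol methyl oxidase, and Scd1 had the 2 largest estimates of the members in cediranib against control. That of Msmo1 was 1.39 (interval 0.28 to 2.5, FDR 0.999). Msmo1 had the lowest estimate in combination against cediranib at −1.02 (interval −2.11 to 0.06, FDR 0.246), on 330 counts in all. Without cediranib tumor 2 these Msmo1 values were 1.74 (FDR 0.304) and −1.37 (FDR 0.131). Dhcr7, which encodes the last reductase of the Kandutsch-Russell route to cholesterol, had 4.98 ± 0.566 CPM in control and 7.98 ± 1.66 CPM in combination tumors, with a log2 fold change of 0.68 (interval 0.16 to 1.19, FDR 0.0913). Fdft1 and Lss, which encode squalene synthase and lanosterol synthase, and Nsdhl had no FDR under 0.2 in any comparison. Tm7sf2, a sterol reductase gene, had group means from 53.8 to 57.5 CPM, the smallest range in ratio among the 25 members, and its interval for combination against control was −0.22 to 0.41. Tm7sf2 overlaps Vps51 and Gm28374 on the same strand, and how shared reads were counted is not known. On the opposite strand Cyp51 overlaps Akap9 and Fdft1 overlaps Ctsb.

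The regulators differed from each other. Insig1 lay at 23.2, 15.5 and 26.4 CPM in control, 44.2, 31.0 and 32.3 in trametinib, 43.6, 16.9 and 47.9 in cediranib and 48.5, 26.5 and 31.7 CPM in combination tumors. The trametinib and combination tumors lay above all controls, by as little as 26.5 against 26.4 CPM, and the FDR was 0.277 and 0.222. Srebf2 lay at 190.4, 184 and 177 CPM in control, 221, 202 and 187 in trametinib, 248, 126 and 282 in cediranib and 245, 193 and 167 CPM in combination tumors. The groups overlapped throughout. Against control, the log2 difference was 0.15 with trametinib, 0.25 with cediranib and 0.13 with the combination. Without cediranib tumor 2 the cediranib value of Srebf2 was 0.53 (FDR 0.384).

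Srebf1 lay at 59.8, 57.4 and 57.9 CPM in control, 66.6, 56.7 and 73.6 in trametinib, 64.2, 55.9 and 70.2 in cediranib and 91.6, 76.2 and 73.5 CPM in combination tumors. The 3 combination tumors lay above all controls and above all cediranib tumors. Srebf1 rose in combination against control by a log2 fold change of 0.46 (SE 0.13, interval 0.17 to 0.75, FDR 0.0479). Leaving out any of the 6 tumors compared ended the call, with FDRs of 0.0661 to 0.154, and adding the epidermal score to the fit gave 0.31 with an FDR of 0.609. The call was also lost without the filter on low counts (FDR 0.0731) and with only the groups compared in the fit (FDR 0.0652). It held in 6 of 15 alternatives. Srebf1 overlaps Rai1 on the opposite strand, and the strand setting of the counting is not known. Scap had group means of 62 to 76 CPM and no FDR under 0.3. Stard4 rested on 126 counts in all.

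**Figure D5:**
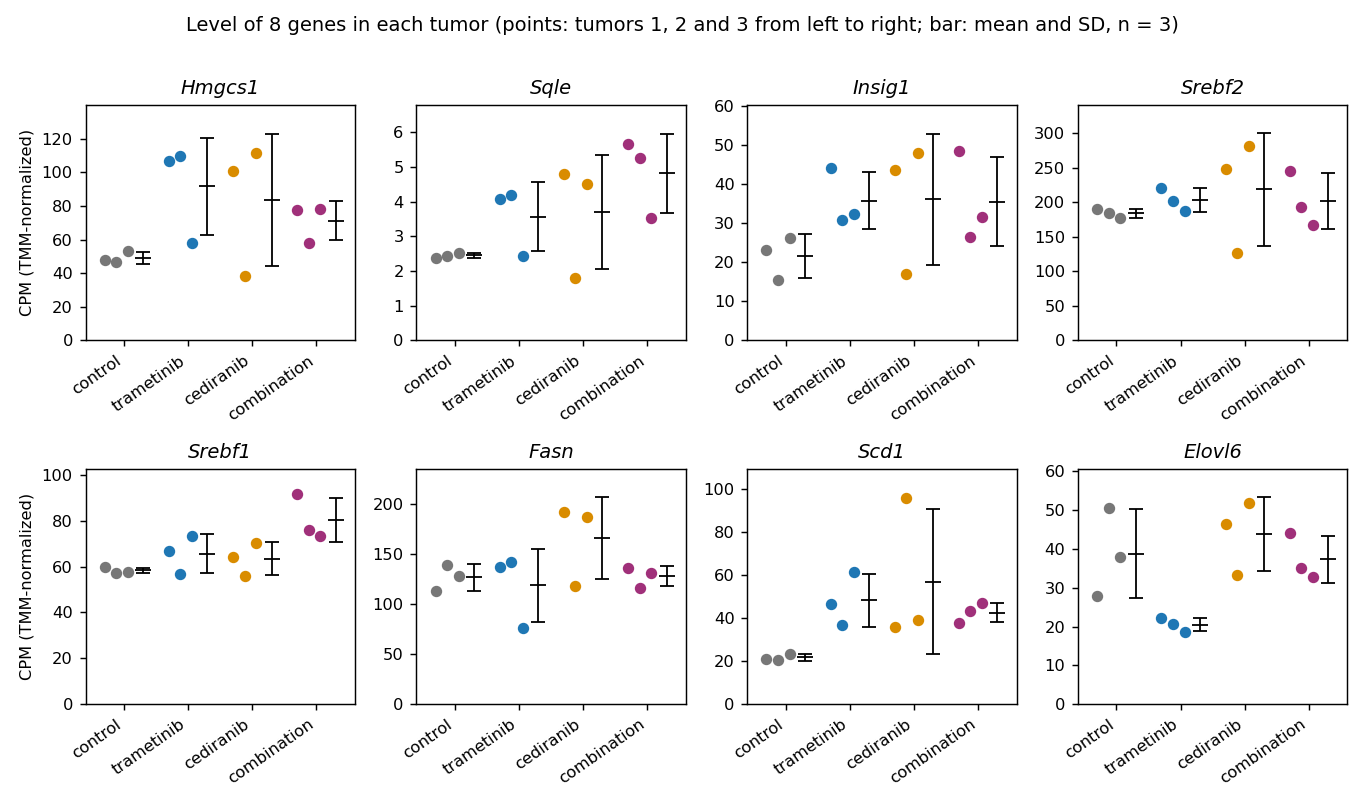
TMM-normalized CPM of 8 members in each tumor, with tumors 1, 2 and 3 of a group from left to right and the mean with SD (n = 3) beside them, on axes that start at 0. The second cediranib tumor lies below the other 2 in every panel except Scd1, where it is the highest at 95.8 CPM, and the 3 trametinib tumors are the lowest for Elovl6.

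In fatty acid synthesis, Elovl6 was the member that fell. It encodes the elongase that extends palmitate to stearate. It lay at 27.8, 50.6 and 38.0 CPM in control, 22.2, 20.7 and 18.7 in trametinib, 46.6, 33.2 and 51.8 in cediranib and 44.1, 35.1 and 32.7 CPM in combination tumors. All 3 trametinib tumors lay below the other 9 tumors. The log2 fold change was −0.92 (SE 0.23, interval −1.41 to −0.43, FDR 0.0336) for trametinib against control. With cediranib added to trametinib it was 0.86 (interval 0.37 to 1.35, FDR 0.0813), and with trametinib added to cediranib −0.23 (interval −0.72 to 0.25, FDR 0.575), or −0.40 (FDR 0.374) without cediranib tumor 2. The interaction was 0.69 (interval −0.00 to 1.37, FDR 0.703), so a difference between the settings was not established. The call of Elovl6 was lost without control tumor 2 or 3 or without any trametinib tumor, with FDRs up to 0.122. The value was −1.12 (FDR 0.0137) without control tumor 1. With the adipocyte score in the fit it was −0.58 (FDR 0.259). The call was also lost with the epidermal score (FDR 0.0574), with only the groups compared (FDR 0.0551) and with the replicate block (FDR 0.0608). It held in 6 of 15 alternatives. Elovl6 overlaps Gm43072 on the same strand and Gm35986 on the opposite strand.

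Scd1, a desaturase that makes oleate from stearate and is also known for high levels in fat and sebaceous glands, lay at 21.2, 20.5 and 23.5 CPM in control tumors. It lay at 46.7, 36.8 and 61.5 CPM with trametinib, at 36.0, 95.8 and 39.1 CPM with cediranib and at 37.8, 43.1 and 46.9 CPM with the combination. All 9 treated tumors lay above all 3 controls, as held for 1 member and for 81 genes, 0.628% of those tested. The log2 fold change was 1.15 (SE 0.33, interval 0.44 to 1.86, FDR 0.0577) for trametinib, 1.39 (interval 0.68 to 2.10, FDR 0.999) for cediranib and 0.97 (interval 0.26 to 1.68, FDR 0.0784) for the combination, each against the same controls. None of these passed, although DESeq2 and the likelihood ratio test of edgeR put all 3 past 0.05. Over 15 alternatives Scd1 passed in 4, 3 and 7, in that order. The 2 tumors with most Scd1, cediranib 2 and trametinib 3, were those with the highest adipocyte sums. Without cediranib tumor 2 the cediranib value was 0.79 (FDR 0.247), and with the adipocyte score in the fit the trametinib value was 0.47 (FDR 0.351). The combination value of Scd1 was 0.75 (FDR 0.0347) with the adipocyte score and 1.81 (FDR 0.0337) with the epidermal score, both past the threshold. Scd2 is a close copy of Scd1, and it is not known how reads matching both were counted.

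Fasn, the fatty acid synthase, lay at 113, 139 and 128 CPM in control, 137, 142 and 76.6 in trametinib, 192, 118 and 187 in cediranib and 137, 117 and 131 CPM in combination tumors. The groups overlapped, and the log2 fold change for combination against control was 0.02 (interval −0.48 to 0.52, FDR 0.975). Acaca, acetyl-CoA carboxylase, had 90.7 ± 8.44 CPM (SD, n = 3) in control and 118 ± 7.01 CPM in combination tumors, which did not overlap, with a log2 fold change of 0.37 (interval 0.06 to 0.69, FDR 0.118). Acly had group means of 265 to 350.0 CPM that overlapped.

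Members whose 3 treated tumors all lay above the controls numbered 6 in trametinib, where 12.9% of all genes did so: Hmgcs1, Fdps, Cyp51, Insig1, Scd1 and Scd2. In the combination they numbered 10, where 15.6% of all genes did so, and these were the same 6 with Sqle, Dhcr7, Srebf1 and Acaca. In cediranib 1 did, Scd1, against 4.31% of all genes. Below all controls lay 1 member with trametinib, Elovl6, against 12.9% of all genes. With cediranib 0 members did, against 3.45% of all genes, and with the combination 0, against 15.7%. In combination against cediranib Srebf1 lay above without overlap, against 14.1% of all genes, and Nsdhl and Stard4 below, against 14.3%. In combination against trametinib Dhcr7 and Elovl6 lay above, against 12.4% of all genes.

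Other genes of the pathway were read from a list of 15 sterol and SREBP genes outside the members, of which 14 were tested. Acss2, which makes acetyl-CoA from acetate and is a known SREBP target, was the 1 gene of this list that passed. It passed in trametinib against control, combination against cediranib and combination against control. Of all genes, 6.12%, 7.68% and 9.98% passed in these comparisons. It lay at 10.6, 10.2 and 11.8 CPM in control and 11, 10.3 and 10.7 CPM in cediranib tumors. It lay at 21.1, 22.8 and 21.5 CPM in trametinib and 20.6, 19.2 and 30.3 CPM in combination tumors. Each tumor that had trametinib thus lay above each tumor that did not. The share of all genes in this order was not counted. Acss2 rose by a log2 fold change of 1.00 (SE 0.18, FDR 0.0063) in trametinib against control and by 1.13 (SE 0.18, FDR 0.00451) in combination against cediranib. Cediranib tumor 2 lay close to cediranib tumors 1 and 3 for this gene. Aacs, Nfyc and Mbtps1 of this list did not pass, and the median of the 14 genes was 0.24 for trametinib and 0.18 for the combination against control.

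Of 19 further fatty acid synthesis genes, 16 were tested, and 1 passed in trametinib against control, where 6.12% of all genes passed. This was Me1, the cytosolic malic enzyme, which rose by 0.81 (FDR 0.0458). The call of Me1 held in 6 of 15 alternatives, with FDRs up to 0.155. It was lost with either tissue score, with the replicate block, with only the groups compared and without any control tumor or trametinib tumor 1 or 2. In combination against control Elovl7, an elongase, rose by 3.17 (SE 0.63, FDR 0.0108) and Mlx, a partner of the carbohydrate response factor, fell by 0.57 (FDR 0.0217). Of all genes, 9.98% passed in that comparison. The call of Mlx held in 9 of 15 alternatives, with FDRs up to 0.306, and was lost with library totals alone, with the epidermal score and without control tumor 2 or any combination tumor. Elovl7 stood at 10.1, 13.3 and 18.2 CPM in combination tumors and at 9.29, 1.13 and 9.38 CPM in the cediranib tumors, so that its low cediranib tumor was also the one low in epidermal markers. With the epidermal score in the fit its value was 1.09 (FDR 0.509).

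Genes that take up, store or esterify lipid were read from further lists. Soat1, which esterifies cholesterol for storage, lay at 56.3, 54.1 and 72 CPM in control and 57.1, 63.0 and 54.3 CPM in cediranib tumors, against 32.8, 34.4 and 22.4 CPM in trametinib and 36.8, 28.2 and 32.9 CPM in combination tumors. It fell by 1.03 (SE 0.18, FDR 0.00567) in trametinib against control and by 0.83 (SE 0.18, FDR 0.0176) in combination against cediranib. The second call of Soat1 was lost with the epidermal score and without cediranib tumor 1 or 2 or combination tumor 2 or 3, with FDRs up to 0.0711. Lrp1, a scavenging receptor of the LDL receptor family, rose by 1.49 (SE 0.23, FDR 0.00428) in combination against cediranib and by 1.58 (FDR 0.00307) in combination against control. The call of Lrp1 in combination against control was lost with the epidermal score, at an FDR of 0.0991. In trametinib against control Lrp1 gave 0.80 (FDR 0.0601). Of the 15 uptake and export genes tested, 1 passed upward and 1 downward in combination against control. In that comparison 4.85% of all genes passed upward and 9.98% in either direction. Of 11 triglyceride genes, 2 passed in combination against control, where 9.98% of all genes passed. Plin2, a lipid droplet coat gene, fell by 1.27 (SE 0.18, FDR 0.0028) and Dgat2, which makes triglyceride, rose by 1.8 (SE 0.37, FDR 0.0124). The call of Plin2 was lost with the epidermal score, at an FDR of 0.114. The call of Dgat2 was lost without control tumor 2 and with the epidermal score, with FDRs up to 0.198. Of 15 fatty acid oxidation genes tested, Ppard, a nuclear receptor, fell by 0.84 (FDR 0.021) in trametinib against control, where 6.12% of all genes passed. The call of Ppard held in 11 of 15 alternatives, with FDRs up to 0.0885. It was lost with only the groups compared and without control tumor 3 or trametinib tumor 2 or 3. Acadm, a dehydrogenase of medium chains named here after its values were seen, had 0.82 (FDR 0.0422) in combination against cediranib, a call that held in 3 of 15 alternatives and was lost without any of the 6 tumors compared, with FDRs up to 0.315.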

How the data were processed

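Total RNA of frozen xenograft tumors was captured with an exome RNA kit, chosen in the study because of RNA degradation, so a low value can reflect capture or fragment length. Per the labels and the study's methods, the authors aligned reads to GRCm38 with STAR 2.7.1a, counted them per gene with featureCounts 1.6.0 (base calls by bcl2fastq 1.8.4) and deposited raw counts, with no normalization. For the annotation release, the strand setting and multimapping reads, settings were not given in the sources used. There were 0 columns of other samples.

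Tumors were grouped by their titles. Counts were scaled by TMM, filtered with filterByExpr (minimum count 10, minimum total 15) and tested in edgeR 4.0.16 (R 4.3.3) by quasi-likelihood, using 1 fit of 4 group means to all 12 tumors. P-values were adjusted by Benjamini-Hochberg over all genes tested. Standard errors are the absolute log2 fold change over the square root of F, intervals are 95%, and a prior count of 2 entered log2 CPM. The fit was tested on simulated data.

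Members, gene lists and tests were chosen with earlier results of these data known. Values in every tumor are given for members past an FDR of 0.05 in any comparison and for Hmgcs1, Sqle, Insig1, Srebf1, Srebf2, Fasn and Scd1. Other lists are given as counts or summed levels, some with up to 6 named genes. Apart from Acadm, Adipoq and Mc5r, these had the smallest FDR in trametinib or combination against control or combination against trametinib. A list of proliferation genes is not described. Members were matched by gene name, 1 row each (96 names in the table stood for more than 1 row). Alternatives were other scaling (RLE, library totals), no filter, DESeq2 1.42.0, the likelihood ratio test, only the groups compared, a replicate block, epidermal or adipocyte scores as covariates and each tumor left out. Of the promoters, Sqle had no entry and the Idi1 window lay mostly inside the gene as the table places it, so neither is printed. The other Srebf1 windows held too few bases outside the gene and are not printed either.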

Additional observations from a re-analysis of the deposited data

How the results depend on the processing

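At the study's FDR of 0.05, counts of members passing were compared between the fit described above and each alternative, and the threshold of 1.5 was compared in the same way. Without the filter on low counts, where 29 members were tested, 6 passed in trametinib against control (1690 of all genes), 5 in cediranib against control (489), 4 in combination against control (2390), 1 in combination against trametinib (1411) and 2 in the interaction (373), of which 1 also passed the threshold of 1.5 (261). Srebf1 was not among the 4 in combination against control. DESeq2 and the likelihood ratio test each gave 2 in trametinib against control and in combination against control, 1 in cediranib against control and 1 in combination against trametinib, where the likelihood ratio test passed 1155, 1693, 16 and 634 of all genes. Library totals alone gave 2 in combination against control (1308 of all genes), and fitting only the groups compared gave 1 in combination against trametinib (355). In trametinib against control that fit called Scd1 (FDR 0.0205) and not Elovl6, and the epidermal score called Hmgcs1 (FDR 0.0344) and not Elovl6. In combination against control both of these fits called Scd1 and not Srebf1. The adipocyte score in the fit gave 3 in trametinib against control (350 of all genes), all 3 past 1.5 as well (215; Hmgcs1, Fdps and Cyp51), and 4 in combination against control (1452). The epidermal score gave 1 past 1.5 in combination against control (79). Leaving out 1 tumor gave 0 to 1 in trametinib against control at the FDR alone, 0 in combination against control and in the other comparisons, and 0 past 1.5 in all of them. The replicate block gave 0 in trametinib against control (719 of all genes), with Elovl6 at an FDR of 0.0608. The numbers do not pair the tumors: same-numbered tumors had correlations of their deviations from −0.22 to 0.36, and 4 of 12 tumors correlated best with their own number. Over the members' single values, 2118 kept direction and side of the threshold, 18 lost and 37 gained the call, 200 changed sign with neither value past the threshold and 0 reversed. Acss2 passed under 14 of 15 alternatives in trametinib against control, Soat1 under 15 of 15. The causes were not tested.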

Other observations

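With the epidermal score in the fit, the members' median log2 fold change was −0.16 in combination against control, 0.14 in cediranib against control and −0.47 in combination against trametinib, in place of 0.36, 0.44 and 0.06. With the adipocyte score in the fit it was 0.59 in trametinib against control, in place of 0.17. Both scores follow the treatment groups in part, so these fits separate group and tissue only where tumors of a group differ.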
